A study of Mus musculus with 14 samples.

Results

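The liver releases hormones and hormone-binding proteins that act on fat, muscle, brain and the liver itself. These data describe 10 genes for such factors, chosen by name as known hepatokines and liver-secreted metabolic hormones: Fgf21, Gdf15, Angptl4, Angptl8, Fetub, Ahsg, Inhbe, Igfbp1, Igfbp2 and Lect2. They are 10 of the 55427 genes of the expression table, and all 10 were among the 12110 genes tested, each with 2 or more libraries at 1 scaled FPKM or above. FPKM counts fragments per kilobase of exon, relative to library size. It was scaled by dividing each library by a factor that brings the bulk of genes to 1 level, so that levels can be compared between libraries and between genes. Fold changes are on the log2 scale of scaled FPKM plus 1, with their standard error (SE).

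Bulk liver RNA was sequenced from male mice after 14 weeks of feeding, with 1 library per mouse. The groups were 3 mice labelled RageHepKO on a high-AGE diet (HiAD), 2 mice on the HiAD injected daily with pyridoxamine (HiAD + PM), 3 vehicle-treated mice on the HiAD, 3 mice on the fast-food diet (FFD) and 3 mice on chow. AGEs are advanced glycation end-products, which form when sugars react with protein, RAGE is their receptor (gene Ager), and PM inhibits their formation. The HiAD is the FFD after cooking, both were given with fructose-sweetened water, and PM was given at 60 mg per kg by intraperitoneal injection from week 5. All groups carried the floxed RAGE allele on a C57B6 background, were 8 to 10 weeks of age when used, and the RageHepKO mice also carried Alb cre, a recombinase driven by the albumin promoter of hepatocytes.

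Several libraries stand apart from their labels or groups. Ager was 0.198, 1.90 and 1.83 scaled FPKM in the libraries labelled RageHepKO, against 0.0811 to 0.184 in HiAD libraries, so each was above every HiAD library. It was 2.49 to 2.75 in HiAD + PM, 2.47 to 2.78 in FFD and 0.801 to 2.15 in chow libraries, so the HiAD libraries were the lowest in Ager, below every library of any other group. The HiAD libraries had at most 0.0959 scaled FPKM of Mup7, a male urinary protein gene, against 40.1 or more in every other library, and summed cholangiocyte markers of 94.7 to 150.5 against 17.6 to 37.9 elsewhere. Their names carry the letter B where other libraries carry R or RA. What the letter marks is not given. The HiAD + PM and RageHepKO HiAD mice ate the same diet without the letter B or the missing Mup7, so both go with the vehicle-treated HiAD group alone, and the letter and that group cannot be told apart. Whether the libraries labelled HiAD and RageHepKO hold what their labels say was not tested, and every comparison with either rests on it. Transcripts of the mitochondrial genome took 24.3 to 53.1% of FPKM in the libraries labelled RageHepKO, against 14.1 to 22.1% in HiAD. They took 14.5 to 16.8% in HiAD + PM, 6.06 to 10.1% in FFD and 13.1 to 24.1% in chow libraries, so FFD lay wholly below HiAD and HiAD + PM. The part of these differences in the results was not tested. Summed markers of hepatocytes, the labelled tissue's main cells, were high in all libraries, between 20141 and 52963 scaled FPKM. In bulk tissue, fewer cells of a type and less RNA per cell cannot be told apart.

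Among the hormone genes themselves 2 libraries were extreme. RageHepKO HiAD 19 held the highest or lowest of all 14 values in 8 of 10 genes, and chow 2 in 6 of 10. Chow 2 differed from the other chow mice by more than 1 on the log2 scale in 7 of 10 hormone genes, against 12.3% of all tested genes. RageHepKO HiAD 19 did so in 6 of 10, against 15.5% of all tested genes. Results that rest on these libraries are given with and without them.

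**Figure D1:**
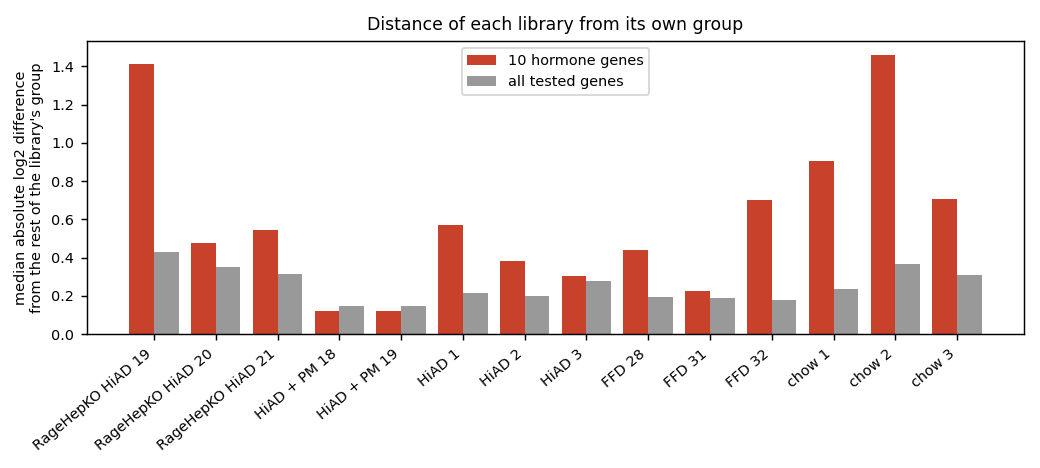
Median absolute log2 difference (y axis) of each library (x axis) from the mean of the other libraries of its own group, in red for the 10 hormone genes and in grey for all tested genes. For the hormone genes chow 2 (1.46) and RageHepKO HiAD 19 (1.42) are highest, and both HiAD + PM libraries, which are compared only with each other, are lowest (0.123).

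The hormone genes passed the test in 1 of the 6 comparisons, that of the libraries labelled RageHepKO with HiAD. There, 4 of 10 passed an adjusted p under 0.05 from limma: Gdf15 and Fetub were higher, Igfbp1 and Igfbp2 lower. This is near the background, since 33.4% of all tested genes passed in this comparison, 1900 (15.7%) higher and 2144 (17.7%) lower. On the FPKM as deposited, where the median of all genes shifted by -0.26, 952 were higher and 3371 lower, and 5 of 10 hormone genes passed. The median log2 fold change the 10 genes was -0.073, beside -0.00067 for all tested genes. Passing were 0 of 10 in HiAD + PM against HiAD, where 6.45% of all tested genes passed (3.31% higher and 3.14% lower), 0 of 10 in HiAD against FFD (3.1%), 0 of 10 in HiAD against chow (4.62%), 0 of 10 in FFD against chow (0.0661%) and 0 of 10 in HiAD + PM against FFD (0.132%). At an unadjusted p under 0.05 from limma there were 3, 2, 1, 1 and 1 hormone genes in these same comparisons, and 6 in RageHepKO HiAD against HiAD. Of the 12110 tested genes, 2429, 1964, 2422, 1218 and 1012 did so in these same comparisons, and 5375 in RageHepKO HiAD against HiAD. Groups did not overlap for 6 of 10 hormone genes in RageHepKO HiAD against HiAD (44% of all tested genes), 5 in HiAD + PM against HiAD (50%), 1 in HiAD against FFD (30.6%), 1 in HiAD against chow (25.6%), 1 in FFD against chow (17.9%) and 4 in HiAD + PM against FFD (41.8%). The comparisons with HiAD share the same 3 HiAD libraries, so their results are not independent.

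**Figure D2:**
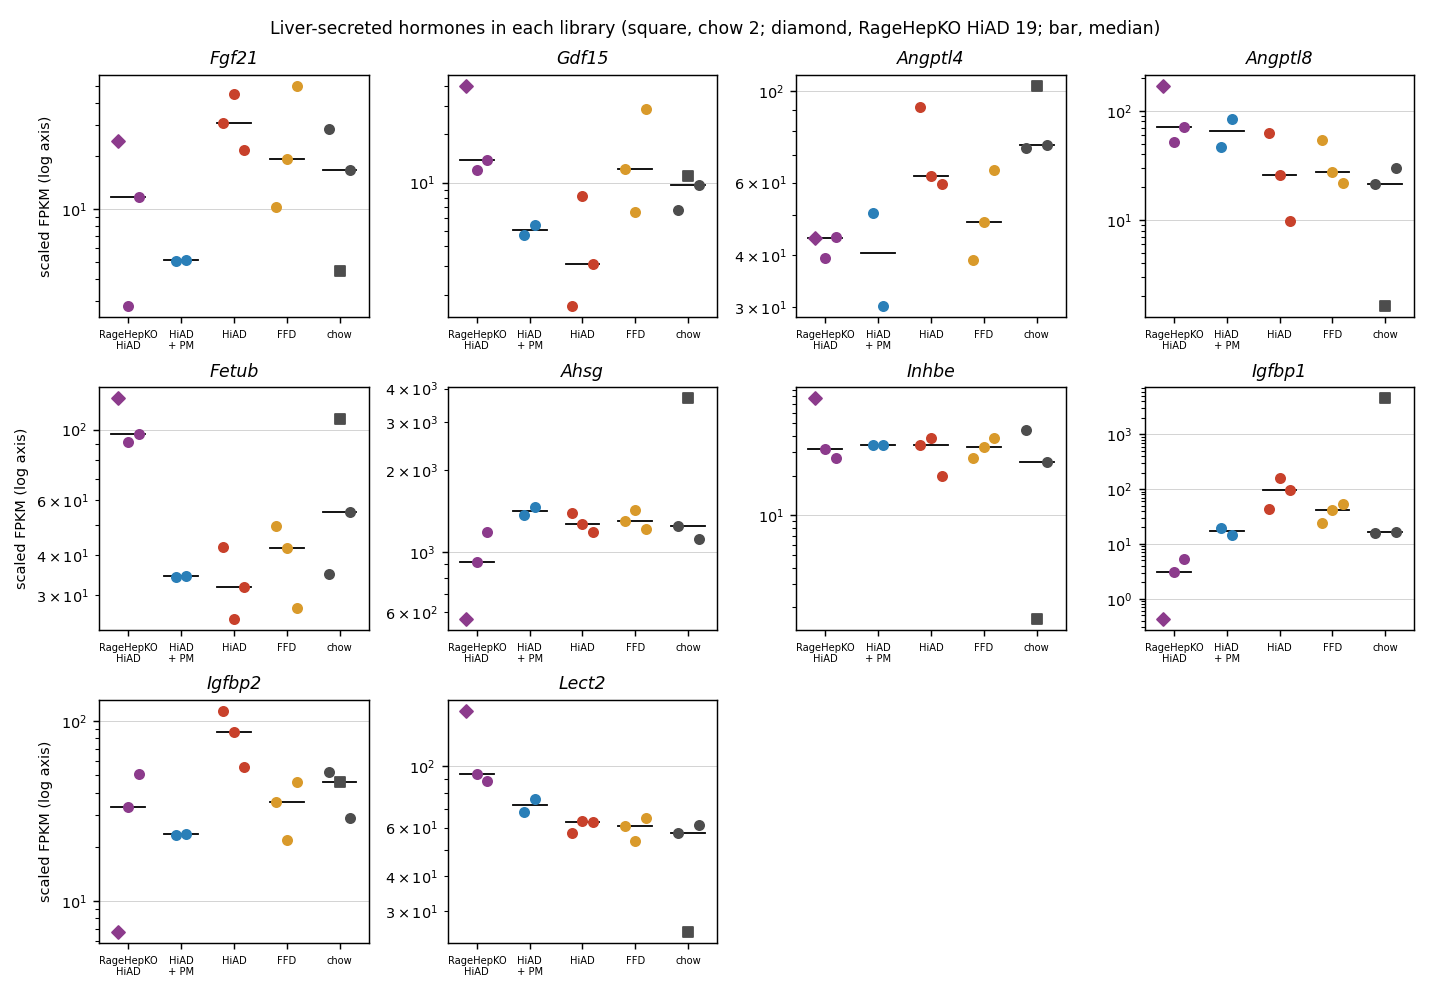
Scaled FPKM (log y axis) of each of the 10 hormone genes in each library, by group on the x axis; black bars are group medians, the square is chow 2 and the diamond RageHepKO HiAD 19. Igfbp1 shows the widest range, with 4537 in chow 2 and 0.428 in RageHepKO HiAD 19, and Fetub in the libraries labelled RageHepKO lies above all HiAD libraries.

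**Figure D3:**
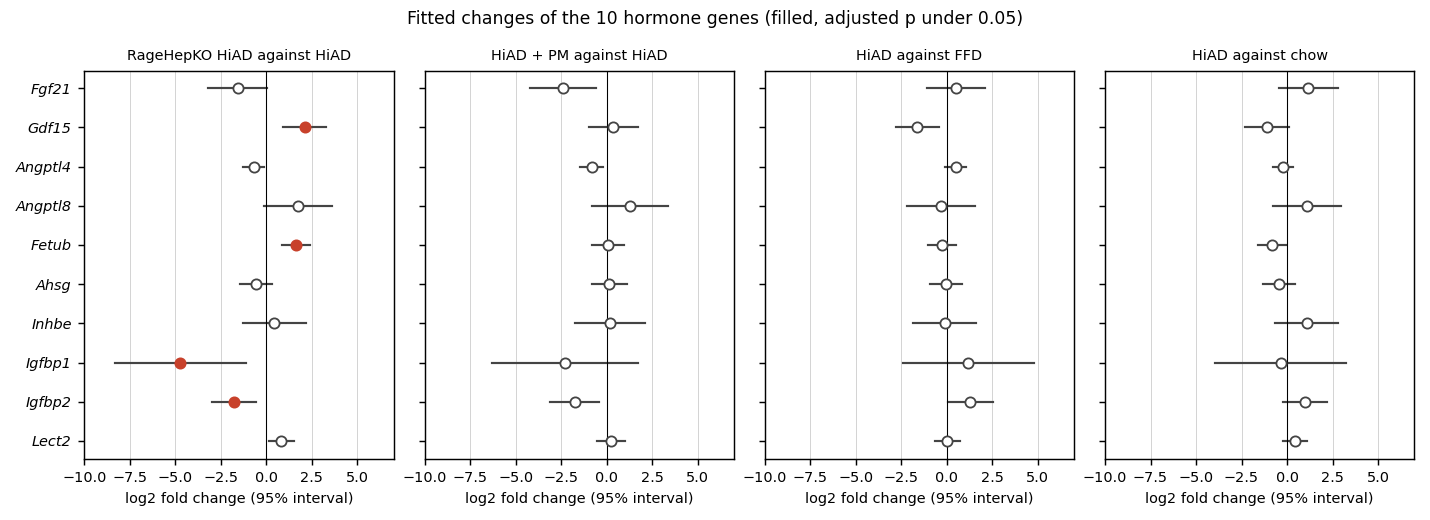
Fitted log2 fold changes (x axis, with 95% intervals as lines) of the 10 hormone genes in 4 comparisons, from limma on log2 of scaled FPKM plus 1; filled points passed an adjusted p under 0.05. The 4 filled points, Gdf15, Fetub, Igfbp1 and Igfbp2, are all in RageHepKO HiAD against HiAD.

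FGF21 and GDF15 are hormones of metabolic stress. FGF21 acts through an FGF receptor with the co-receptor beta-Klotho (Klb), and GDF15 through GFRAL in the hindbrain, where it lowers food intake. In liver both are known targets of the integrated stress response, in which the factors ATF4 and CHOP bind C/EBP-ATF elements, and Fgf21 is also a target of the fasting receptor PPAR alpha. Fgf21 (chromosome 7, 45613886 to 45615490, GRCm38) had 5.07 and 5.15 scaled FPKM in HiAD + PM livers, against 30.5, 44.8 and 21.7 in HiAD livers. Both PM livers were below every HiAD liver. The log2 fold change was -2.39 (SE 0.83, 95% interval -4.19 to -0.59), with adjusted p = 0.122 from limma over all 14 libraries, so the difference did not pass. It passed in a fit of these groups alone (adjusted p = 0.00597 from limma) and with sample quality weights (0.00391), and over all alternatives the adjusted p ran from 0.00391 to 0.449.

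In the other groups Fgf21 varied widely between mice. It was 24.3, 2.81 and 11.7 scaled FPKM in the libraries labelled RageHepKO, 10.3, 19.1 and 50.1 in FFD livers and 28.6, 4.44 and 16.6 in chow livers. RageHepKO HiAD and HiAD overlapped, and their log2 difference was -1.58 (SE 0.74, adjusted p = 0.118 from limma). Without RageHepKO HiAD 19 it was -2.20 (adjusted p = 0.0519), and without RageHepKO HiAD 20, the lowest library, it was -0.84. Over all alternatives the adjusted p from limma ran from 0.022 to 0.38. The group medians ran from HiAD through FFD, chow and RageHepKO HiAD down to HiAD + PM, and each neighbouring pair in that order overlapped.

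Gdf15 (chromosome 8, 70629393 to 70632456) was higher in the libraries labelled RageHepKO. It had 40.2, 12.0 and 13.8 scaled FPKM there, against 1.70, 8.21 and 3.12 in HiAD livers. The groups did not overlap, as for 44% of all tested genes, and the log2 fold change was 2.09 (SE 0.55, adjusted p = 0.0131 from limma). Without RageHepKO HiAD 19 the change was 1.57 (adjusted p = 0.0491), and without HiAD 1, the lowest library, it was 1.70 and no longer passed (adjusted p = 0.0536). With sample quality weights it was 1.61 (adjusted p = 0.101).

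The HiAD median of Gdf15 was the lowest of all groups, but the HiAD libraries overlapped those of HiAD + PM, FFD and chow. FFD livers had 12.1, 6.60 and 28.7 and chow livers 6.71, 10.95 and 9.67 scaled FPKM, while HiAD + PM livers had 4.74 and 5.41. HiAD against FFD gave a log2 fold change -1.62 (SE 0.55, adjusted p = 0.153 from limma), which did not pass, and the highest HiAD library lay above the lowest FFD library. Neither HiAD against chow (-1.09) nor HiAD + PM against HiAD (0.37) passed.

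The promoters of Fgf21, Angptl8 and Inhbe each hold the C/EBP-ATF letters TGATGNAA on either strand within 250 bases before to 50 bases after the start site. Of 32851 RefSeq promoters of that length (GRCm38.p6), 3.97% hold them. Of the 10 hormone genes 9 had a promoter entry, and these 3 genes were the ones with a match. The Fgf21 and Angptl8 stretches are shown because these hormone genes carry the element in common, with the matched letters in capitals, 5′ to 3′ on the strand of the gene, ending 10 bases short of the start site. The first is chr7:45615501-45615740 on the minus strand and the second chr9:21835260-21835499 on the plus strand.
Fgf21: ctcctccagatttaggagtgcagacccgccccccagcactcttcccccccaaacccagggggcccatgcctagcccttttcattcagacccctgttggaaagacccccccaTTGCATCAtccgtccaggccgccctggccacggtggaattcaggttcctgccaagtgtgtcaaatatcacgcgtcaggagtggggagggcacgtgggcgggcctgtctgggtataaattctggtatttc
Angptl8: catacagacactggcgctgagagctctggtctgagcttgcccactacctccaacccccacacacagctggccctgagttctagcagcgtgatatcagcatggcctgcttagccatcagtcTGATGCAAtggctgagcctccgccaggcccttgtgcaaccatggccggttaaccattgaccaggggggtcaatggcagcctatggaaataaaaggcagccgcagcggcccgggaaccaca
In Fgf21 the match lies on the opposite strand and begins 139 bases before the start site, in Angptl8 on the same strand 130 bases before it, and in Inhbe on the opposite strand 181 bases before it. The Gdf15 promoter holds a match to the direct repeat of nuclear receptors such as PPAR alpha, AGGNCA and again AGGNCA after 1 base, 55 bases before the start site, as do 0.381% of all promoters. A match is a run of letters, not a site shown to be used.

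Of the receptors of both hormones, Klb was lower in the libraries labelled RageHepKO. It had 2.77, 4.20 and 2.64 scaled FPKM there, against 15.2, 10.8 and 20.1 in HiAD livers (log2 fold change -1.94, SE 0.39, adjusted p = 0.00344 from limma). Fgfr4, the main FGF receptor of hepatocytes, was 11.3, 5.5 and 6.41 against 5.08, 4.15 and 3.57. Of 7 receptor genes 4 were tested, and 1 passed in that comparison and 0 in the other comparisons. Of all tested genes 33.4% passed in RageHepKO HiAD against HiAD, and 17.7% were lower. Gfral was listed at 0 in all 14 libraries.

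Genes of the integrated stress response, of which 17 of 23 were tested, passed in both directions. In RageHepKO HiAD against HiAD, 2 of 17 tested genes were higher and 4 lower, near the shares of all tested genes there (15.7% higher and 17.7% lower), with a list median of -0.51. On the FPKM as deposited 0 were higher and 5 lower. Atf4, the transcription factor of the response, was higher (70.7, 75.0 and 71.7 scaled FPKM, against 57.3, 39.8 and 22.6 in HiAD, log2 fold change 0.94, adjusted p = 0.0411 from limma). The amino acid transporter chain Slc3a2 fell by 0.93 on the log2 scale, the alanine transaminase Gpt2 by 1.19 and Cebpb, a C/EBP factor, by 1.06. Under PM 1 of 17 passed against HiAD, Gpt2 (58.2 and 53.3, against 151, 239.4 and 187 scaled FPKM), beside 6.45% of all tested genes. Ddit3, which encodes CHOP, stayed at or under 1.46 scaled FPKM in all libraries. In HiAD against chow 1 of 17 passed, Shmt2 of serine and glycine metabolism, with a log2 fold change -0.95, beside 4.62% of all tested genes.

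ANGPTL4 and ANGPTL8 set where fat from lipoproteins is taken up. ANGPTL4 inhibits lipoprotein lipase (Lpl) and is induced by fatty acids through PPAR receptors, whereas ANGPTL8 rises with feeding and insulin and takes part in inhibiting the lipase. Angptl4 (chromosome 17, 33773750 to 33781830) had 44.0, 39.4 and 44.4 scaled FPKM in the libraries labelled RageHepKO and 50.7 and 30.1 in HiAD + PM livers, against 91.2, 62.3 and 59.6 in HiAD livers. Both groups lay wholly below HiAD. The log2 fold changes were -0.70 (SE 0.26, adjusted p = 0.0552) for the libraries labelled RageHepKO and -0.82 (SE 0.29, adjusted p = 0.13) for HiAD + PM from limma, and neither passed. The first passed on the FPKM as deposited (log2 fold change -1.06, adjusted p = 0.0112) and without chow 2 (0.0426), and the second with sample quality weights (adjusted p = 0.0233). Over all alternatives the adjusted p from limma ran from 0.00519 to 0.195 for the first and from 0.0233 to 0.733 for the second. FFD livers, with 39.0, 48.3 and 64.4, lay below chow livers, with 72.7, 103.0 and 74.0, and this difference did not pass (log2 fold change -0.72, SE 0.26, adjusted p = 0.364 from limma).

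Angptl8 (chromosome 9, 21835510 to 21837347, inside Dock6 on the opposite strand, with no shared exon) ran the other way. It had 171, 52.0 and 70.9 scaled FPKM in the libraries labelled RageHepKO and 46.2 and 85.1 in HiAD + PM livers, against 62.9, 25.7 and 9.70 in HiAD livers. HiAD 1 overlapped both groups. The log2 fold changes in RageHepKO HiAD and in HiAD + PM, each against HiAD, were 1.72 (SE 0.87, adjusted p = 0.143) and 1.28 (SE 0.97, adjusted p = 0.521) from limma. The first passed without chow 2 (adjusted p = 0.0454). FFD livers had 53.6, 27.3 and 21.99 and chow livers 21.4, 1.62 and 29.8. Chow 2 held the lowest value, so that HiAD against chow was 1.11 with it and 0.0037 without it. RageHepKO HiAD 19 held the highest value. In that library the summed adipocyte markers were 67.3 scaled FPKM against at most 1.34 elsewhere, of which Cfd gave 64.8, while the defining markers Adipoq and Lep were at 0 and Plin1 at 0.00744.

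Lpl itself changed in more comparisons than either inhibitor. It had 11.6, 11.8 and 10.8 scaled FPKM in the libraries labelled RageHepKO and 10.8 and 9.53 in HiAD + PM livers, against 33.9, 23.0 and 114 in HiAD livers. HiAD livers were in turn above the 6.92, 7.47 and 6.58 of FFD livers and the 1.40, 0.863 and 2.42 of chow livers. From limma, Lpl had log2 fold changes of -1.88 in RageHepKO HiAD against HiAD (adjusted p = 0.00627), -2.04 in HiAD + PM against HiAD (0.025), 2.52 in HiAD against FFD (0.00722) and 4.20 in HiAD against chow (0.000211). Adult hepatocytes express little Lpl, and summed markers of stellate cells and fibroblasts were 55.2 to 77.9 in HiAD against 19.3 to 39.8 in the other groups. Summed markers of Kupffer cells and macrophages were 85.7 to 145.5 in HiAD, against 108 to 874 in the other groups. The part of these cells in the Lpl difference was not tested. Of 15 tested genes of the lipase list, 3 were higher and 4 lower in RageHepKO HiAD against HiAD, near the shares of all tested genes there (15.7% higher and 17.7% lower). Apoc3, an inhibitor of lipoprotein clearance, was higher by 1.96 on the log2 scale, and Furin, a protease that cleaves the angiopoietin-like factors, was lower (-1.55), as was Lipg (-1.23). Angptl2 of the same list was higher in HiAD against chow (1.06, adjusted p = 0.0118 from limma). Under PM, relative to HiAD, Lpl and its capillary anchor Gpihbp1 (-0.996) were lower and the clearance receptor Lrp1 was higher (0.82).

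Genes controlled by the same fasting and feeding factors passed in several comparisons. Of 18 PPAR alpha genes, 8 were lower and 0 higher in HiAD + PM against HiAD, with a median log2 fold change -1.14 beside 0.0081 for all tested genes, of which 3.14% were lower. Cyp4a14, a fatty acid hydroxylase, had 64.4 and 48.2 scaled FPKM in HiAD + PM livers, against 4397, 3505 and 5654 in HiAD livers (log2 fold change -6.29, SE 0.78, adjusted p = 0.000626 from limma). Cyp4a10 of the same family (-4.88), Pdk4, which holds back glucose oxidation (-3.58), and Cpt1a, the gate of mitochondrial fat oxidation (-1.20), were also lower. Fgf21 and Angptl4, which belong to the same known target set, had log2 fold changes of -2.39 and -0.82, as given above. Cyp4a10 and Cyp4a14 have close relatives among which reads can be shared, so their single values are uncertain.

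Of 16 tested genes of the sugar and insulin factors ChREBP, SREBP-1c and LXR, 5 were higher and 1 lower in HiAD + PM against HiAD (median 1.05). Of all tested genes 3.31% were higher and 3.14% lower there, with a median of 0.0081. Pklr, liver pyruvate kinase, had 44.2 and 67.8 scaled FPKM in HiAD + PM livers, against 3.02, 6.92 and 3.49 in HiAD livers (log2 fold change 3.41, SE 0.52, adjusted p = 0.00244 from limma). Acly and Fasn of fat synthesis were higher by 1.15 and 1.62, and Txnip, which limits glucose uptake, was lower (-1.56). The libraries labelled RageHepKO had 5 of 18 PPAR alpha genes lower and 0 higher than HiAD, among them Pdk4 (-3.46), Cpt1a (-1.42), Ppara (-1.07) and Acot2 (-2.54). Of all tested genes 15.7% were higher and 17.7% lower in that comparison. The libraries labelled RageHepKO had 3 of 16 ChREBP, SREBP-1c and LXR genes higher and 3 lower, near those shares, with Nr1h3, which encodes LXR alpha, at 1.002, the ChREBP gene Mlxipl at 2.54, Tkfc of fructose metabolism at 1.33 and Acaca of fat synthesis at -0.57. In HiAD against FFD, 1 of 18 PPAR alpha genes (Pdk4, 2.11) and 0 of 16 ChREBP, SREBP-1c and LXR genes passed, beside 3.1% of all tested genes. HiAD against chow had 2 PPAR alpha genes higher (Pdk4, 2.37, and Ppara, 0.96), and Scd1, the desaturase of fat synthesis, was higher in HiAD (4.01) and in FFD (4.09) than on chow. In HiAD against chow Acaca was also higher (0.66) and Tkfc was lower (-1.78), where 4.62% of all tested genes passed. HiAD + PM against FFD had Cyp4a10 (-4.22) and Cyp4a14 (-5.05) lower and Fasn (2.34) higher.

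**Figure D4:**
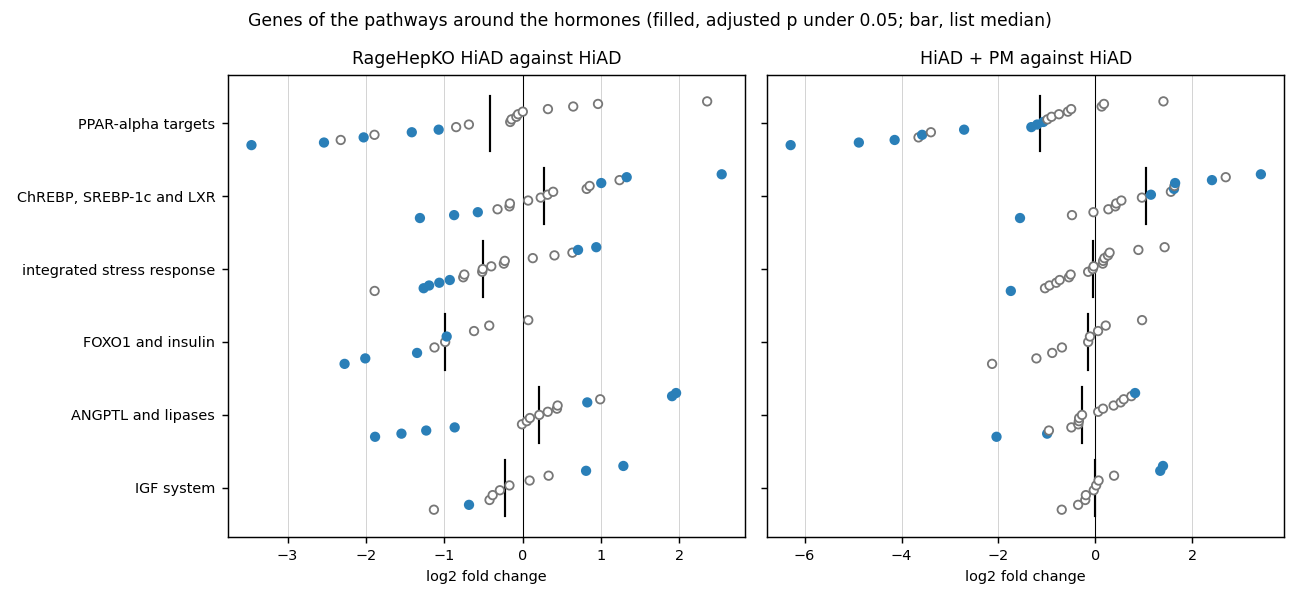
Log2 fold changes (x axis) of every tested gene on 6 lists (y axis) in 2 comparisons; filled points passed an adjusted p under 0.05 and black bars are list medians. The PPAR alpha list lies to the left under PM, with a median of -1.14, and the ChREBP, SREBP-1c and LXR list to the right, with a median of 1.05.

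**Figure D5:**
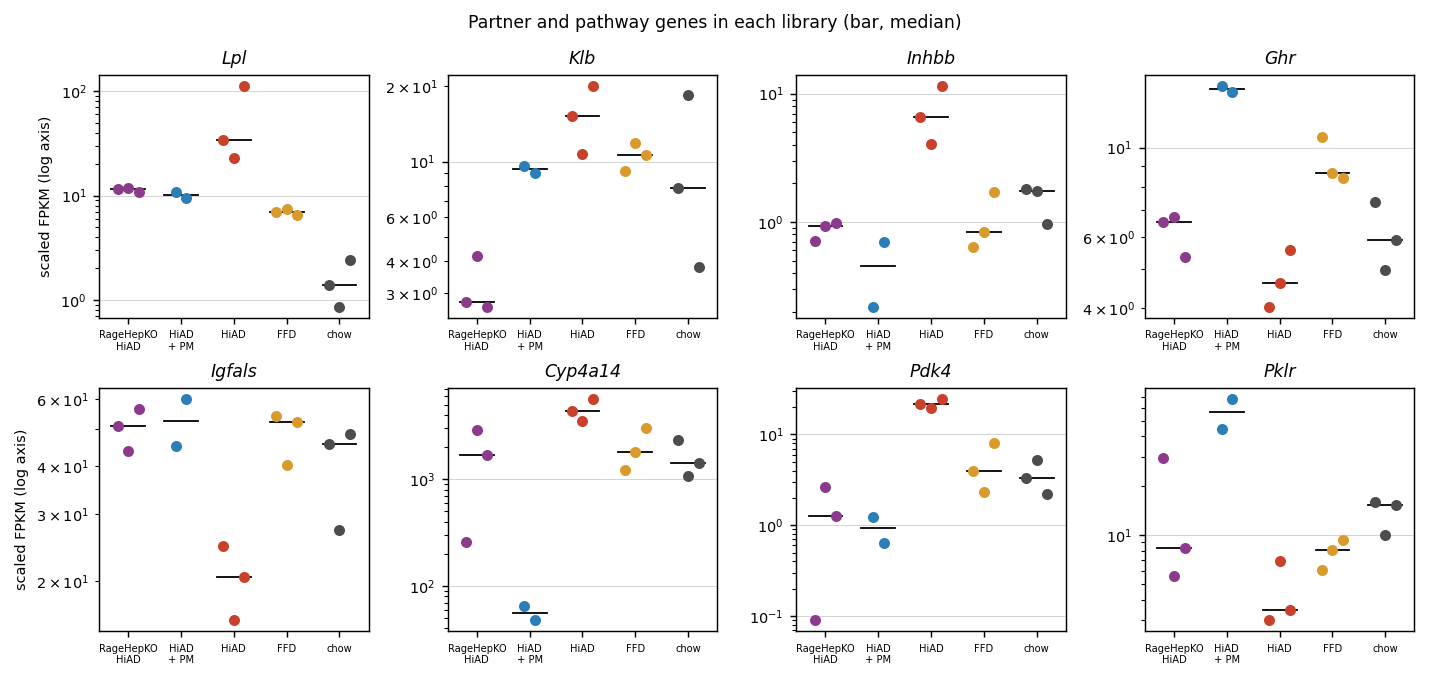
Scaled FPKM (log y axis) of 8 partner and pathway genes in each library, by group on the x axis; black bars are group medians. Cyp4a14 is between 48.2 and 64.4 in HiAD + PM libraries and at least 258 in every other library, and Lpl in HiAD libraries is at least 23.0.

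Fetuins are liver glycoproteins of the cystatin superfamily. Fetuin-A (Ahsg) keeps calcium phosphate in solution in blood and can inhibit the insulin receptor, and fetuin-B (Fetub) inhibits a protease of the egg and has been described as a hepatokine in fatty liver. Fetub (chromosome 16, 22918334 to 22939778) had 125, 91.5 and 97.1 scaled FPKM in the libraries labelled RageHepKO, against 42.4, 25.2 and 31.8 in HiAD livers. The groups did not overlap, and the log2 fold change was 1.65 (SE 0.36, adjusted p = 0.00482 from limma). It passed under every alternative tried, with adjusted p from 0.000965 to 0.0221, and was 1.51 without RageHepKO HiAD 19. HiAD + PM livers had 34.2 and 34.5, inside the HiAD range, FFD livers 49.6, 42.3 and 27.2, and chow livers 35.0, 108 and 54.7. Chow 2 was the highest of the libraries not labelled RageHepKO. HiAD against chow was -0.85 (SE 0.36, adjusted p = 0.203 from limma), and -0.42 without chow 2.

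Ahsg (chromosome 16, 22891277 to 22899449) lies 18.9 kb from Fetub and was by far the most abundant of the 10 genes, yet it did not follow its neighbour. It had 565, 913 and 1186 scaled FPKM in the libraries labelled RageHepKO, against 1394, 1264 and 1180.2 in HiAD livers, with a log2 fold change -0.59 (SE 0.40, adjusted p = 0.28 from limma). On the FPKM divided by the sum without mitochondrial genes it was -1.01 and passed (adjusted p = 0.0489). HiAD + PM livers had 1369 and 1462 and FFD livers 1295, 1431 and 1209. Chow livers had 1244, 3681 and 1115, so that apart from chow 2 and the libraries labelled RageHepKO all values lay between 1115 and 1462. An antisense gene, Gm30505, shares 62 exon bases with Ahsg, whose reads cannot be told apart without strand. Of 5 tested genes among the other cystatins, 0 passed in any of the comparisons. Hrg, next to Fetub on chromosome 16, had 375, 366 and 386 in the libraries labelled RageHepKO against 459, 278 and 287 in HiAD livers. In chow 2, Hrg (1561) and Kng1 (1070.0) were high like both fetuins, against 412 and 468 and against 259 and 306 in the other chow mice.

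INHBE is a subunit of activin E, which is made in liver and restrains fat breakdown in adipose tissue through the receptor ALK7 (Acvr1c). Inhbe (chromosome 10, 127348857 to 127354411) was steady in most livers. It had 77.2, 32.2 and 27.3 scaled FPKM in the libraries labelled RageHepKO and 34.3 in both HiAD + PM livers, against 34.0, 39.0 and 19.95 in HiAD livers. FFD livers had 27.2, 33.0 and 38.4 and chow livers 44.3, 1.63 and 25.6. All groups overlapped, and the log2 fold change in RageHepKO HiAD against HiAD was 0.44 (95% interval -1.28 to 2.16), or -0.01 without RageHepKO HiAD 19. For HiAD + PM against HiAD it was 0.19 (95% interval -1.73 to 2.12). Without chow 2, HiAD against chow turned to -0.17, with 1.07 when that library was kept. Gm47200, a gene on the opposite strand, contains Inhbe without sharing an exon.

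Another activin subunit, Inhbb, separated HiAD from every other group. It had 0.713, 0.924 and 0.985 scaled FPKM in the libraries labelled RageHepKO and 0.219 and 0.693 in HiAD + PM livers, against 6.56, 4.03 and 11.6 in HiAD livers. FFD livers had 0.640, 0.833 and 1.71 and chow livers 1.82, 1.73 and 0.956. The log2 fold changes from limma were -2.06 in RageHepKO HiAD against HiAD (adjusted p = 0.000772), -2.44 in HiAD + PM against HiAD (0.00137), 1.96 in HiAD against FFD (0.00381) and 1.66 in HiAD against chow (0.00892). Inhbc, 1.9 kb from Inhbe, passed in none, with 110.2, 116 and 98.3 in the libraries labelled RageHepKO against 66.4, 40.01 and 85.4 in HiAD livers. Of the receptors, Acvr2a was lower in RageHepKO HiAD against HiAD (-1.03, adjusted p = 0.00561), and Acvr1c was at or under 0.0400 in all libraries. Fst, the activin-binding follistatin, was 18.7 in chow 2 and at most 3.44 elsewhere.

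IGFBP1 and IGFBP2 bind insulin-like growth factors in blood. Liver Igfbp1 is known to be induced within hours by fasting and stress and shut off by insulin, which removes FOXO1 from its insulin response element, and Igfbp2 also falls with insulin and rises with leptin. Igfbp1 (chromosome 11, 7197782 to 7202546) was the most variable of the 10 genes. It had 0.428, 3.06 and 5.21 scaled FPKM in the libraries labelled RageHepKO, against 43.4, 157 and 95.2 in HiAD livers. Every one of these libraries was below every HiAD library and also below all other libraries of the series. The log2 fold change was -4.73 (SE 1.65, 95% interval -8.33 to -1.13, adjusted p = 0.0448 from limma). The direction held under every alternative, and the call did not. It was lost with no filter (adjusted p = 0.11), and on leaving out any 1 library of the HiAD, HiAD + PM, FFD or RageHepKO HiAD groups, with adjusted p from 0.053 without FFD 28 to 0.126 without RageHepKO HiAD 19 (log2 fold change -4.13). Without chow 2, which enters this comparison only through the shared estimate of spread, the adjusted p was 2e-04.

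HiAD + PM livers, with 19.8 and 14.3 scaled FPKM of Igfbp1, were below all HiAD livers and below the FFD livers with 24.0, 42.0 and 52.8. The log2 fold change HiAD + PM against HiAD was -2.30 (SE 1.84, adjusted p = 0.551 from limma) and did not pass. Without chow 2 the same change passed (adjusted p = 0.0371), as it did in a fit of both groups alone (0.0323). Of 27 alternatives 24 did not pass, and over all of them the adjusted p from limma ran from 0.0104 to 0.865. Chow livers had 16.2, 4537 and 16.7. Chow 2 decided the comparison with chow, since HiAD against chow was -0.34 with it and 2.33 (adjusted p = 0.0401) without it, and FFD against chow was -1.52 with it and 1.15 (adjusted p = 0.454 from limma) without it.

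The Igfbp1 promoter is shown for its insulin response element. It holds CAAAACNA 108 bases before the start site, and of the 9 hormone genes with a promoter entry it was the 1 with a match, beside 5.17% of all 32851 promoters. The stretch is chr11:7197537-7197776 on the plus strand, with the matched letters in capitals.
Igfbp1: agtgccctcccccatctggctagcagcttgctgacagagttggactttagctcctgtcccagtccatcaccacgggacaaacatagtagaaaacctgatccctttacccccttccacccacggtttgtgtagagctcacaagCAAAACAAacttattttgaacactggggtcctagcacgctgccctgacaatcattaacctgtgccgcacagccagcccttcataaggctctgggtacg
The carbohydrate response element, sought as CNCGNG repeated after a gap of 5 bases, matched in none of the 9 promoters and in 1.39% of all promoters.

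Igfbp2 (chromosome 1, 72824503 to 72852474) moved in the same direction as Igfbp1 in RageHepKO HiAD and in HiAD + PM, each against HiAD, and in HiAD against FFD. In HiAD against chow Igfbp2 was 0.98 (adjusted p = 0.357 from limma), with Igfbp1 at -0.34. Igfbp2 had 6.74, 33.3 and 51.0 scaled FPKM in the libraries labelled RageHepKO and 23.4 and 23.5 in HiAD + PM livers, against 113, 86.8 and 55.8 in HiAD livers. FFD livers had 35.6, 21.8 and 45.6 and chow livers 52.3, 45.6 and 28.9, so every HiAD liver was above every other library. From limma, the log2 fold change was -1.79 in RageHepKO HiAD against HiAD (SE 0.56, adjusted p = 0.0286). Without RageHepKO HiAD 19, the lowest library, it was -0.97 and did not pass (adjusted p = 0.067), nor did it in a fit of both groups alone (0.0867), with no filter (0.0843), or without HiAD 1 (0.0918) or HiAD 2 (0.0714). For HiAD + PM against HiAD it was -1.76 (SE 0.63, adjusted p = 0.131), and passed with sample quality weights (0.00124), in a fit of both groups alone (0.0151) and without RageHepKO HiAD 19 (0.0134). Of 27 alternatives 22 did not pass there, and the adjusted p from limma ran up to 0.469. In HiAD against FFD the log2 fold change was 1.29 (SE 0.56, adjusted p = 0.275), and passed with sample quality weights (0.0277). There 25 of 27 alternatives did not pass, with an adjusted p up to 0.562 from limma.

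Of 10 tested genes of the IGF system, 2 were higher and 0 lower in HiAD + PM against HiAD, and the same genes, Igfals and Ghr, were lower in HiAD than in FFD. Of all tested genes 3.31% were higher and 3.14% lower in the first comparison, and 3.1% passed in HiAD against FFD. Igfals, the subunit that holds IGF1 in blood, had 50.9, 43.8 and 56.6 scaled FPKM in the libraries labelled RageHepKO and 45.1 and 60.1 in HiAD + PM livers, against 24.7, 15.8 and 20.5 in HiAD livers. Its log2 fold changes from limma were 1.28 (adjusted p = 0.00289) and 1.34 (0.0141), and -1.24 (0.0189) in HiAD against FFD. Ghr, the growth hormone receptor, had 14.3 and 13.7 in HiAD + PM livers against 4.03, 4.62 and 5.56 in HiAD livers (1.39, adjusted p = 0.00143), and was lower in HiAD than in FFD livers (-0.83, adjusted p = 0.0228). In RageHepKO HiAD against HiAD 2 of 10 were higher, Igfals and Igf1 (0.81), and 1 lower, Igfbp4 (-0.68), near the shares of all tested genes (15.7% and 17.7%). Growth hormone is known to drive Igfals, and also Mup7, given above. Its part in these levels was not tested. Igf1 did not pass in HiAD against FFD (0.28, adjusted p = 0.676 from limma). In HiAD against chow Igf1 (0.037, adjusted p = 0.96), Igfals (-0.94, 0.0515) and Ghr (-0.30, 0.371) did not pass either.

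Of 9 tested genes of insulin signalling and FOXO1, 4 were lower and 0 higher in RageHepKO HiAD against HiAD, where 17.7% of all tested genes were lower. They were Foxo1 (-1.35), Foxo3 (-0.97), the tyrosine transaminase Tat (-2.27) and the coactivator Ppargc1a (-2.01). Foxo1 had 3.70, 4.33 and 4.17 scaled FPKM in the libraries labelled RageHepKO, against 13.8, 9.22 and 13.2 in HiAD livers. The gluconeogenic genes Pck1 (-0.62, adjusted p = 0.268) and G6pc (-0.99, adjusted p = 0.254) did not pass. Without RageHepKO HiAD 19, 2 of 9 were lower. In the other comparisons 0 of 9 passed. In chow 2, where Igfbp1 was highest, Tat was 2901, G6pc 864, Irs2 31.6, Ppargc1a 18.4 and the stress gene Ddit4 263 scaled FPKM. These compare with at most 485 for Tat, 146 for G6pc, 5.23 for Irs2, 1.18 for Ppargc1a and 6.57 for Ddit4 in the other chow mice. Their part in the Igfbp1 value was not tested.

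LECT2 is a liver protein that binds the receptors MET and TIE1 and has been linked to insulin resistance in muscle. Lect2 (chromosome 13, 56542464 to 56548502) had 158, 93.3 and 88.4 scaled FPKM in the libraries labelled RageHepKO, against 57.5, 63.3 and 62.7 in HiAD livers. The groups did not overlap, and the log2 fold change 0.83 (SE 0.31, adjusted p = 0.0566 from limma) did not pass. It passed without chow 2 (adjusted p = 0.0105) and without chow 3 (0.0474), and was 0.46 (adjusted p = 0.294) on the FPKM as deposited. HiAD + PM livers had 68.5 and 76.1, also above all HiAD livers, FFD livers 60.7, 53.9 and 65.0, and chow livers 57.4, 25.3 and 61.6. Without chow 2 and the libraries labelled RageHepKO, the values spanned 53.9 to 76.1. Of its 3 receptor genes, Met alone was tested and was lower in RageHepKO HiAD against HiAD (8.24, 8.19 and 7.89, against 9.64, 12.4 and 15.1 scaled FPKM, log2 fold change -0.53, adjusted p = 0.0279 from limma).

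Across the 14 libraries some hormone genes ran together or apart, as a description over libraries that share groups and extreme mice. Angptl8 and Igfbp1, which insulin is known to move in opposite directions, had a Pearson r of -0.889 on the log2 scale, and -0.752 without chow 2. Ahsg and Lect2 had -0.934 and -0.87. Fetub and Ahsg had -0.0835 over 14 libraries and -0.729 without chow 2, so that this value rests on that library. The tested genes whose pattern was most like a hormone gene that passed were Mgmt (0.83), Plekhn1 (0.825) and Lhpp (0.821) for Gdf15, Ptcd1 (0.922), Tsg101 (0.914) and Kdm3a (0.891) for Fetub, Sdc4 (0.941), Smim13 (0.935) and Ell2 (0.931) for Igfbp1, and Atp5b (0.928), Clns1a (0.922) and H3f3b (0.897) for Igfbp2. Without chow 2 the values for Igfbp1 were 0.882 with Sdc4, 0.934 with Smim13 and 0.829 with Ell2, and those for the other hormone genes were 0.82 to 0.955.

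Chow 2 and RageHepKO HiAD 19 were singled out because they were extreme in these same 10 genes. Leaving both out, an alternative chosen after seeing the data, therefore lowers the spread of these genes by selection. Passes under it are a description and lend no support. With both left out, 4 of 10 hormone genes passed in RageHepKO HiAD against HiAD. They were Fgf21 (-2.20, adjusted p = 0.022 from limma), Fetub (1.51, 0.00279), Igfbp1 (-4.13, 0.000331) and Lect2 (0.56, 0.0142), while Gdf15 (1.57, 0.0507) and Igfbp2 (-0.97, 0.0633) did not. In HiAD + PM against HiAD, 3 of 10 then passed, Fgf21 (-2.39, 0.0344), Igfbp1 (-2.30, 0.0104) and Igfbp2 (-1.76, 0.0116). In HiAD against FFD Igfbp2 passed (1.29, 0.0415), and in HiAD against chow Igfbp1 (2.33, 0.0121). In HiAD + PM against HiAD, HiAD against FFD and HiAD against chow, more of all tested genes also passed than in the main test. The counts of hormone genes under this alternative are therefore not to be set against the shares of the main test. No share of all tested genes under this alternative is given here, so the counts are not read as a result about these genes.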

How the data were processed

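Liver RNA of 14 mice was sequenced by the authors, who name GRCm38 (mm10) in the submitters' processing notes and GENCODE annotation in their methods. The authors deposited 1 table, described as raw counts, whose values are FPKM: they are not whole, and multiplied by exon length in kilobases they sum to between 902199 and 994227 per library. Read depth is therefore unknown, and the tests planned for counts could not be used. Of 55583 entries, 27 with date names and 129 identical repeats were dropped. FPKM were divided by a factor per library, the mean after trimming 30% at each end over the 6522 genes that had 1 FPKM or more everywhere. The 12110 genes with 2 or more libraries at 1 scaled FPKM or above entered limma 3.58.1 in R 4.3.3 as log2(scaled FPKM + 1), using 5 group means, trended and robust variances, 6 contrasts and Benjamini-Hochberg adjustment over all tested genes, with an adjusted p under 0.05 as the threshold. Fold changes on this scale understate those of low genes. Fold changes are the first group over the second, and every adjusted p in the text comes from this limma test or its named alternative.

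Groups follow the sample titles. Nothing in the labels pairs mice, and p-values measure the spread between these libraries. The hormone genes and all lists were chosen with earlier results of these data known. Named were all 10 hormone genes, up to 4 passing genes with the smallest p per list and comparison (where none passed, up to 2 partners of a hormone gene), and the 3 tested genes with the highest Pearson r to each hormone gene that passed. Genes given outside this rule (chow 2 values, Fgfr4, Ddit3, Inhbc, Fst, Hrg, Kng1, Atf4, Pck1, G6pc) were chosen after their values were seen. Alternatives were other scalings, filters and pseudocounts, sample quality weights, fits of only the groups compared, omission of each library, and, chosen after seeing the data, leaving out chow 2 and RageHepKO HiAD 19 together. The code was tested on simulated data. Sequences are from RefSeq (GRCm38.p6) and positions from GENCODE on GRCm38. Motifs were sought on both strands with Python 3.11.15.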

Additional observations from a re-analysis of the deposited data

How the results depend on the processing

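Over all alternatives, 1534 values of single hormone genes kept direction and side of the threshold, 26 newly passed, 21 no longer passed and 39 changed sign, and the cause was not tested. Fetub in RageHepKO HiAD against HiAD passed under every alternative. With no filter, 2 hormone genes passed in RageHepKO HiAD against HiAD, and 54 genes in HiAD + PM against FFD (16 in the main test). Genes past the threshold in FFD against chow were 8, and 5 with the mean filter, 3 and 5 with pseudocounts of 0.1 and 0.5, 19 on the FPKM as deposited, 536 with sample quality weights, 5 with the groups alone, 33 at an adjusted p under 0.1 and 18 without the libraries labelled RageHepKO. In HiAD against chow they were 560, and 1000 with the sum without mitochondrial genes, 2380 with weights, 238 with the groups alone, 1021 at 0.1 and 888 without the libraries labelled RageHepKO. For HiAD + PM against FFD they were 35 with the sum without mitochondrial genes, 1117 with weights, 126 with the groups alone, 42 at 0.1 and 32 without the libraries labelled RageHepKO. In HiAD against FFD they were 376, and 1139 with weights, 630 with the groups alone and 645 at 0.1. For HiAD + PM against HiAD they were 781, and 3109 with weights and 1467 with the groups alone. In RageHepKO HiAD against HiAD they were 4044, and 2662 with the groups alone. With weights 1 hormone gene passed in HiAD against FFD, 3 in HiAD + PM against HiAD and 1 in HiAD + PM against FFD, and in HiAD + PM against HiAD 3 passed with the groups alone and 1 without the libraries labelled RageHepKO.

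Signs changed for Lect2 in HiAD against FFD on the FPKM as deposited (-0.058), Ahsg there with the sum without mitochondrial genes (0.059), and with weights for Inhbe in HiAD against FFD (0.038), HiAD against chow (-0.043), FFD against chow (-0.081) and RageHepKO HiAD against HiAD (-0.017), Igfbp1 in HiAD against chow (2.003) and FFD against chow (0.74), and Fgf21 in FFD against chow (-0.046).

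Leaving out libraries gave 143 to 935 genes in HiAD against FFD, 207 to 1585 in HiAD against chow, 2 to 75 in FFD against chow, 132 to 1526 in HiAD + PM against HiAD, 2791 to 4470 in RageHepKO HiAD against HiAD and 0 to 161 in HiAD + PM against FFD, where the 0 came without HiAD + PM 18 (564 genes at an unadjusted p under 0.05). Hormone genes past the threshold were 0 to 1 in HiAD against FFD and HiAD against chow, 0 to 3 in HiAD + PM against HiAD and 1 to 7 in RageHepKO HiAD against HiAD, the 1 without HiAD 1 and the 7 without chow 2. Signs changed in FFD against chow for Ahsg (-0.71 to 0.15), Fgf21 (-0.012 to 1.21), Igfbp1 (-2.87 to 1.15) and Inhbe (-0.049 to 2.0). They changed in HiAD against chow for Ahsg (-0.75 to 0.12), Igfbp1 (-1.69 to 2.33) and Inhbe (-0.17 to 1.88). In HiAD against FFD they changed for Ahsg (-0.10 to 0.029), Angptl8 (-0.96 to 0.33), Fgf21 (-0.0024 to 1.09), Inhbe (-0.31 to 0.16) and Lect2 (-0.039 to 0.094). For HiAD + PM against HiAD they changed for Fetub (-0.10 to 0.27), Gdf15 (-0.022 to 0.86) and Inhbe (-0.085 to 0.38), in HiAD + PM against FFD for Angptl4 (-0.70 to 0.035), Fetub (-0.41 to 0.014) and Inhbe (-0.053 to 0.19), and in RageHepKO HiAD against HiAD for Inhbe (-0.010 to 0.72).

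Higher calls were 47% in RageHepKO HiAD against HiAD, and 22% on the FPKM as deposited and 20% with the sum without mitochondrial genes. They were 60.7%, 74.6% and 81.9% in HiAD against chow under the same settings, 53.5% and 65.5% in HiAD against FFD (sum without mitochondrial genes), and 12.5% and 52.6% in FFD against chow (as deposited). HiAD and chow share replicate numbers, but same-numbered libraries did not deviate together (r 0.0359, -0.0868 and -0.0537), and with the replicate block 85 genes and 0 hormone genes passed in HiAD against chow (1678 genes and 2 hormone genes at an unadjusted p under 0.05). Read depth is unknown, so no limit from counting error can be given.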

Other observations

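Among 11 other liver-secreted factors, Manf, a stress-induced secreted protein of the endoplasmic reticulum, was higher in HiAD + PM against HiAD (log2 fold change 2.10, standard error 0.39, adjusted p = 0.00746 from limma), and was the 1 of 11 that passed there, where 6.45% of all tested genes passed. In RageHepKO HiAD against HiAD, 2 were higher, Smoc1 (0.61) and Serpinf1 (0.65), and 2 lower, Gpnmb (-0.89) and the selenium carrier Selenop (-1.05), beside 33.4% of all tested genes. Gpnmb reached 1 scaled FPKM in HiAD 2 (1.89) and HiAD 3 (1.09) alone and was at most 0.134 outside HiAD. It thus entered the test only through its HiAD level, near the floor, and its call carries no weight.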
